A study of Mus musculus with 50 samples.

Results

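S-phase stem and progenitor cells were studied among cells sorted from mice that had each received a single haematopoietic stem cell (HSC). The cells were chosen by expression. A cell was gated when it had at least 1000 detected genes, at most 10% mitochondrial counts, a count of Procr (the HSC surface protein EPCR) and a count of Mecom or Hlf, transcription factor genes of HSCs. Each gated cell got an S score, the mean log2(CPM + 1) of Mcm3, Mcm5, Lig1, Ung, Hells, Gins2 and Cdt1, and an M score, the same mean of Top2a, Birc5, Nusap1, Spc25 and Pbk. CPM is the count of a gene scaled to the same total in each cell. S-phase cells were the gated cells in the top 10% by S that were not in the top 10% by M. They numbered 176, in 4271 cells in all, 4185 kept cells and 3171 gated cells. Their share of gated cells was 5.55% (exact 95% binomial interval 4.78 to 6.40), which the 10% limits largely fix.

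Before a cell divides it copies its DNA once, in S phase. In G1 the MCM2-7 ring is loaded on origins by ORC, CDC6 and CDT1, and in S phase CDC45 and the GINS complex join it to form the helicase that opens the DNA for polymerases held by the PCNA clamp. Many of these genes are driven by E2F transcription factors at the G1/S transition. Most HSCs of an adult mouse are quiescent, and progenitors downstream of them divide more often.

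All recipients were lethally irradiated B6-Ly5.2 mice given a single HSC of a β-actin-GFP transgenic B6-Ly5.2 donor, together with whole marrow cells of B6-Ly5.2 mice as competitors. Samples were taken at 1 month (10 samples, 5 of them marrow with spleen and the others marrow), 4 months (26, of which 4 with spleen) and 12 months (14, of which 6 with spleen), and the animals' ages were not given in the sources used here. Cells were enriched for c-Kit and sorted singly by surface markers or GFP, so the sort sets which cells are present, and donor, competitor and host cells were not told apart here. None of the cell names carries a sample title, so cells could not be placed by month, tissue or sort gate. All cells were treated as 1 pooled sample with no replicates. Values are therefore descriptions with no test of significance. Intervals on summed counts are exact 95% Poisson intervals that cover counting error only, and amplified copies of a molecule are not independent. Libraries, groups of cells amplified together, are used below to show how far a value varies. They are not replicates of a condition.

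The 67 libraries held 22 to 92 cells each and between 1665151 and 26184494 counts. S-phase cells had a median of 207123 counts (15816 to 613645), 5157 detected genes and 1.49% mitochondrial counts. Low-score cells, the 1018 gated cells below the median of both scores, had a median of 118648 counts, 3892 genes and 1.71% mitochondrial counts. Depth thus moved with the S score, and values were also computed after thinning each cell to 50000 counts, which left 158 S-phase and 815 low-score cells (18 and 203 were shallower). Applied anew to thinned cells, the rule gave 124 S-phase cells, 110 of which were S-phase cells on full counts.

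The S score had no gap at its limit. S-phase cells had a median S score of 6.83 (5.65 to 8.73) and low-score cells of 0.871. The lowest members stood at 5.645, 5.684 and 5.684 and the highest cells outside at 5.645, 5.645 and 5.644. Within 0.25 of the limit there were 28 gated cells above it and 35 below it. At least 5 of the 7 S genes were detected in every S-phase cell, and all 7 in 90 of them (51.1%). Some stem and progenitor markers that the rule did not use were common in them. Ly6a (Sca-1) was detected in 99.4%, Cd34 in 94.9% and Kit in 93.8% of cells. In low-score cells these shares were 98.6%, 77.9% and 87.3%, and all cells had been enriched for c-Kit. Slamf1, Cd48 and Vwf were detected in 32.4%, 25.6% and 15.9% of S-phase cells. The group is a range of a score rather than a separate cluster of cells. A further 142 gated cells were in the top 10% of both scores, and 176 were in the top 10% by M alone and are called G2/M cells here.

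**Figure D1:**
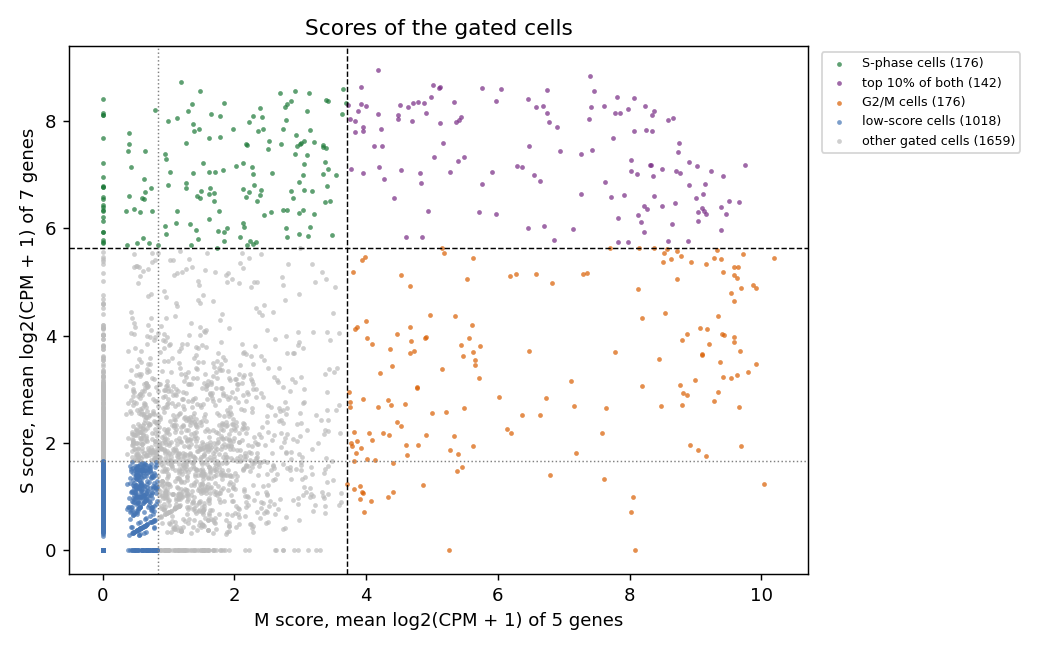
S score against M score for each of the 3171 gated cells (both axes are mean log2(CPM + 1)). Dashed lines mark the top 10% of each score, at 5.65 for S and 3.71 for M, and dotted lines the medians. The 176 S-phase cells fill the upper left field with no gap below them.

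The 7 genes of the S score define the group, so their levels are given as a description. Mcm3 (chr1:20802968-20820312 of GRCm38) and Mcm5 (chr8:75109569-75128439), subunits of the MCM ring, were at 361 CPM (355 to 367) in S-phase cells and 31.0 CPM (30.1 to 32.0) in low-score cells, and at 279.8 CPM (275 to 285) in S-phase cells and 8.9 CPM (8.4 to 9.43) in low-score cells. Cdt1 (chr8:122568015-122573554), which loads that ring, was at 162 CPM in S-phase cells and 3.11 CPM in low-score cells, and Gins2 (chr8:120578633-120589304), a GINS subunit, at 102 CPM in S-phase cells and 2.08 CPM in low-score cells. Lig1 (chr7:13277283-13311433), the ligase that joins Okazaki fragments, was at 493 CPM in S-phase cells and 15.8 CPM in low-score cells. The sharpest difference among the 7 was in Ung (chr5:114130386-114139323), which encodes the glycosylase that removes uracil from DNA, at 153 CPM (149 to 157) in S-phase cells and 1.28 CPM (1.1 to 1.49) in low-score cells. Hells (chr19:38930915-38971051), a chromatin remodeller needed for DNA methylation, was at 303 CPM in S-phase cells and 4.26 CPM in low-score cells. Each of the 7 was higher in S-phase cells in 28 of 28 libraries that had 3 or more S-phase and low-score cells each, which together held 132 of the S-phase cells. When each gene was left out of the score in turn and cells were chosen by the other 6, its own log2 ratio of S-phase over low-score cells was 2.98 for Mcm3, 3.49 for Lig1, 3.84 for Gins2, 3.90 for Mcm5, 4.29 for Hells, 4.40 for Cdt1 and 4.95 for Ung. The chosen cells then numbered between 162 (Ung left out) and 180 (Gins2 left out).

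Promoter sequence of these genes is shown because E2F sites are a known shared feature of G1/S genes. RefSeq windows (GRCm38.p6) of 250 bases before to 50 bases after the transcript start were searched on both strands for the E2F motifs TTTCCCGC, TTTGGCGC, TTTCGCGC and TTTGCCGC. Such a motif was present in 744 of 32851 windows of all genes (2.26%), or 704 of 27025 genes (2.61%). Windows were given for 6 of the 7 S genes, and 5 of the 6 had a motif in at least 1 window. In Mcm3, Cdt1 and Lig1 it lay just past the start, the first bases at 19 and 38, at 32 and at 26. Ung had none. The upstream 250 bases are printed for Mcm5 and Hells and for Mcm6, another MCM subunit gene chosen after its values were seen, with motif bases in capitals. In Mcm5 and Mcm6 the longer run of capitals is a pair of overlapping matches on opposite strands.
Mcm5 (chr8:75109259-75109508, plus strand): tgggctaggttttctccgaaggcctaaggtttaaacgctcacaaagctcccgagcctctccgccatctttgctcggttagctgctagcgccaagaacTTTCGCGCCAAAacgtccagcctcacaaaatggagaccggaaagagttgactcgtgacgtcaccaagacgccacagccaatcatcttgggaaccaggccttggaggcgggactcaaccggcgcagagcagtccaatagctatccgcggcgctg
Hells (chr19:38930740-38930989, plus strand): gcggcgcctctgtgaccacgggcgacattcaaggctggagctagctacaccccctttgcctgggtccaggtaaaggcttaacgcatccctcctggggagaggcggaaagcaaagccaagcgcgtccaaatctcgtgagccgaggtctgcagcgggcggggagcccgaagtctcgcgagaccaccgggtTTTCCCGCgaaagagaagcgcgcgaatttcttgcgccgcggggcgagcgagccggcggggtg
Mcm6 (chr1:128359706-128359955, minus strand): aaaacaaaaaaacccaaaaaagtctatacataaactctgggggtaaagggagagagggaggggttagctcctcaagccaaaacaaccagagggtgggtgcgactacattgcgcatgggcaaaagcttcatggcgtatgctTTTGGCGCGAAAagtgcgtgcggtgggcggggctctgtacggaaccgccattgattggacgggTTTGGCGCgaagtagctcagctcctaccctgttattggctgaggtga
Among genes that did not enter the score, a motif was present in 7 of 18 origin genes with a window, 8 of 26 fork genes, 6 of 17 chromatin replication genes and 4 of 14 repair genes, but in 0 of 10 dNTP supply genes. It was present in 2 of 30 mitosis genes, 2 of 16 HSC identity genes and 3 of 24 ribosome biogenesis genes. The CHR element TTTGAA, which is known from late cell cycle genes, was present in 17.9% of all windows, in 81.8% of 33 windows of mitosis genes and in 0 of 8 windows of the S genes. A match is a description of these letters and was not tied to binding.

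Levels in both groups were then compared over 8468 genes at 10 CPM or more in all gated cells, with the genes of the rule left out. The ratio is of summed counts as CPM, on the log2 scale with 1 CPM added, and a gene at 2-fold or more was called. In S-phase cells 289 genes were called higher (3.41% of genes) and 258 lower (3.05%). The median over all 8468 genes was -0.07, with 3773 genes higher and 4695 lower at any size of ratio. Because members were chosen by replication genes, lists of genes that act with them had to differ, and the counts below are descriptions.

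Replication genes outside the rule were higher almost throughout. Of 57 passing genes of the origin, fork and dNTP supply lists, 53 were higher in S-phase cells and 45 were called higher (78.9%, against 3.41% of all genes), with a median log2 ratio of 2.02. The list median was above 0 in 28 of 28 libraries. On thinned counts of the same cells the median was 1.97. Of the 57 passing genes, 57 reached 10 CPM in S-phase cells and 43 in low-score cells. Some thus passed through the cells where they are high and had to be higher here, which adds to the 78.9%. A further 10 of the 67 listed genes were under the level filter.

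Origin genes did not all differ alike. The rest of the MCM ring was higher throughout. Mcm6 had 535 CPM (528 to 542) in S-phase cells and 92.8 CPM (91.2 to 94.5) in low-score cells and ranged over libraries between 308 and 870.0 CPM (median 558) in S-phase cells and between 41.7 and 205 CPM (median 88.3) in low-score cells, so that the libraries' ranges did not overlap. Mcm2 had 259.6 CPM (255 to 265) in S-phase cells and 29.5 CPM (28.6 to 30.4) in low-score cells (log2 ratio 3.10), Mcm4 had 185 CPM in S-phase cells and 19.0 CPM in low-score cells (3.21) and Mcm7 had 373 CPM in S-phase cells and 91.2 CPM in low-score cells (2.02), each higher in 28 of 28 libraries. Mcm7 was named after its values were seen. Library ranges were taken for chosen genes only, and the share of all genes without overlap was not computed. The ranges also did not overlap for Mcm2. They overlapped for Mcm4, Mcm7, Cdc45 and Gmnn, and for Lig1 of the rule. Of genes named below, they overlapped for Prim1, Timeless, Tyms, Uhrf1, Nasp, Dnmt1, Chek1 and Dtl. Helicase activation genes were low in low-score cells. Cdc45 was at 56.1 CPM in S-phase cells and 4.26 CPM in low-score cells (3.44), Gins1 at 78.6 CPM in S-phase cells and 9.05 CPM in low-score cells (2.99) and Cdc7, the kinase that fires origins, at 42.8 CPM in S-phase cells and 3.51 CPM in low-score cells (3.28). Gmnn, which encodes geminin, the protein that blocks CDT1 from loading MCM again, was at 160.1 CPM in S-phase cells and 21.5 CPM in low-score cells (2.84). The ORC subunits did not follow as a block. Orc1, Orc4, Orc5 and Orc6 were named after their values were seen. Orc4 and Orc5 were at 52.2 CPM in S-phase cells and 52.6 CPM in low-score cells and at 31.4 CPM in S-phase cells and 31.5 CPM in low-score cells, next to no difference, while Orc6 was at 96.9 CPM in S-phase cells and 31.5 CPM in low-score cells. Orc1 was under the filter, at 14.0 CPM in S-phase cells and 2 CPM in low-score cells.

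At the fork, Pcna (chr2:132249162-132253314), the sliding clamp, was at 404 CPM (398 to 411) in S-phase cells and 78.6 CPM (77.1 to 80.1) in low-score cells. It ranged over libraries between 196 and 631 CPM (median 402) in S-phase cells and between 26.4 and 158 CPM (median 79.6) in low-score cells, without overlap. Prim1, the primase catalytic subunit, was at 215 CPM in S-phase cells and 18.5 CPM in low-score cells (log2 ratio 3.47, higher in 28 of 28 libraries). Genes that protect a moving fork were among those furthest apart. Timeless was at 81.1 CPM in S-phase cells and 3.45 CPM in low-score cells (4.20, 28 of 28), its partner Tipin at 343 CPM in S-phase cells and 51.2 CPM in low-score cells (2.72), the checkpoint mediator gene Clspn at 39.1 CPM in S-phase cells and 2.09 CPM in low-score cells (3.70) and Dscc1, part of a clamp loader, at 52.6 CPM in S-phase cells and 1.41 CPM in low-score cells (4.47). A Timeless count was present in 72.2% of S-phase and 5.99% of low-score cells. Not all polymerase genes followed. Pole, the only passing fork gene that was lower, was at 42.2 CPM in S-phase cells and 54.1 CPM in low-score cells and Pole3 at 100 CPM in S-phase cells and 58.0 CPM in low-score cells, both named after their values were seen. As a difference of mean log2(CPM + 1) per cell Pole was at 0.87, where the median of all genes was 0.48. Fen1, the flap nuclease gene, was listed at 0.78 CPM in S-phase cells and 0.786 CPM in low-score cells and was under the filter.

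Genes for DNA precursors were higher with 1 exception. Dut, which keeps uracil out of DNA, was at 671 CPM (663 to 679.6) in S-phase cells and 119 CPM (117 to 121) in low-score cells and ranged over libraries between 310.4 and 1185 CPM (median 615) in S-phase cells and between 21.1 and 264 CPM (median 113) in low-score cells, without overlap. Tyms, which makes thymidylate, was at 181 CPM in S-phase cells and 25.8 CPM in low-score cells (log2 ratio 2.77), higher in 28 of 28 libraries. Tk1 was at 95.4 CPM in S-phase cells and 7.37 CPM in low-score cells and the ribonucleotide reductase subunit genes Rrm1 and Rrm2 at 132 CPM in S-phase cells and 26.7 CPM in low-score cells, and at 29.5 CPM in S-phase cells and 2.93 CPM in low-score cells. Samhd1, which degrades dNTPs, was the exception at 51.3 CPM in S-phase cells and 93.2 CPM in low-score cells (-0.85, named after its values were seen). Of genes that make nucleotides from their first precursors, 19 of 19 had a higher level (median 0.78). Of these, 7 were called (36.8%, against 3.41% of all genes). Among them Umps, of pyrimidine synthesis, was at 124 CPM in S-phase cells and 53.2 CPM in low-score cells and Ctps, which makes CTP, at 40.0 CPM in S-phase cells and 13.5 CPM in low-score cells.

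Chromatin and repair factors of replication followed. The maintenance methylation pair Uhrf1 and Dnmt1 was at 114 CPM (111 to 117) in S-phase cells and 4.75 CPM (4.38 to 5.13) in low-score cells, and at 222 CPM (217 to 226) in S-phase cells and 53.4 CPM (52.2 to 54.7) in low-score cells. Nasp, a histone chaperone gene, was at 277 CPM in S-phase cells and 33.9 CPM in low-score cells (log2 ratio 2.99). Cdca7, which encodes the partner of HELLS, was at 356 CPM in S-phase cells and 78.8 CPM in low-score cells and ranged over libraries between 187 and 607 CPM (median 319) in S-phase cells and between 0 and 134 CPM (median 76.7) in low-score cells, without overlap. Of 18 passing genes of this list 11 were called higher (61.1%, against 3.41% of all genes, median 1.49). Of 22 listed repair genes 13 passed the filter. All 13 were higher and 11 were called (84.6%, median 2.45). Exo1, a resection nuclease gene, was at 32.2 CPM in S-phase cells and 1.35 CPM in low-score cells, Chek1, the replication checkpoint kinase gene, at 42.7 CPM in S-phase cells and 4.69 CPM in low-score cells and Dtl, whose product marks CDT1 for destruction during replication, at 127 CPM in S-phase cells and 17.4 CPM in low-score cells. Chek1 and Dtl were each higher in 28 of 28 libraries.

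**Figure D2:**
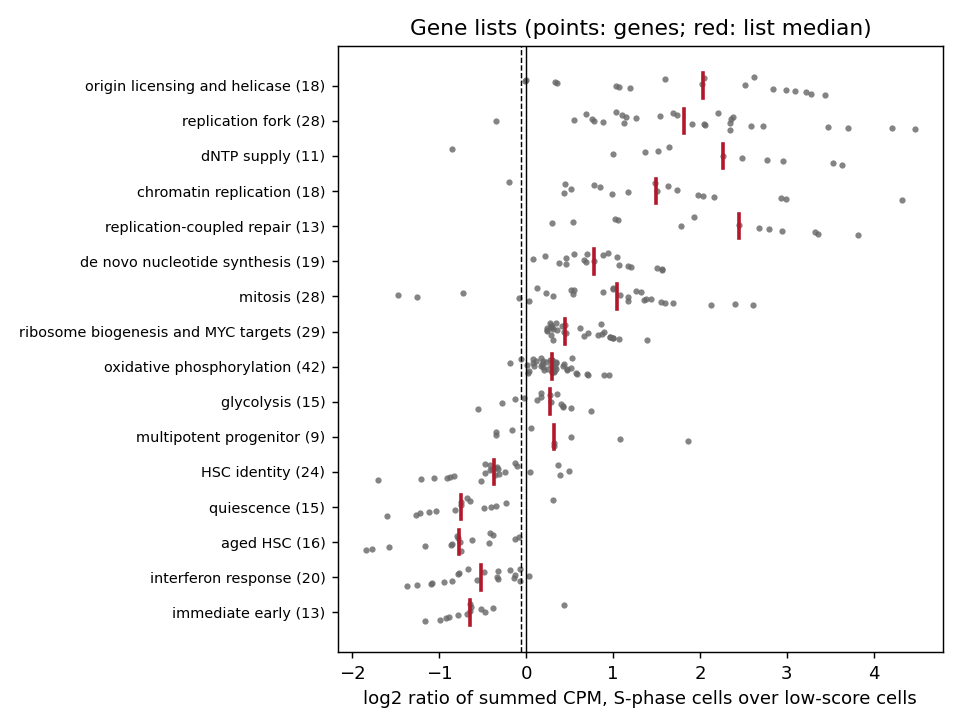
Log2 ratio of summed CPM, S-phase cells over low-score cells, for each gene (grey points) of 16 lists, with the number of passing genes in brackets, the list medians (red bars) and the median of all 8468 genes (dashed line, -0.07). Replication, dNTP and repair lists lie to the right with medians between 1.82 and 2.45, and HSC identity, quiescence and aged HSC lists to the left.

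Regulators of the G1/S step that passed the filter had smaller median ratios than replication genes. Of 12 listed E2F and RB family genes 6 passed, and 3 of the 6 were called higher (50%, against 3.41% of all genes, median 1.07). E2f1, E2f2, E2f7 and E2f8 were under the filter, so the median leaves them out. E2f3 was at 71.4 CPM in S-phase cells and 17.5 CPM in low-score cells (log2 ratio 1.96), Tfdp1, the E2F partner, at 99.9 CPM in S-phase cells and 31.4 CPM in low-score cells (1.64) and the pocket protein gene Rbl1 at 43.7 CPM in S-phase cells and 9.99 CPM in low-score cells (2.02). E2f4, a repressor E2F, was at 45.7 CPM in S-phase cells and 31.9 CPM in low-score cells. The G1/S cyclin genes Ccne1 and Ccne2, named after their values were seen, were under the filter, at 9.29 CPM in S-phase cells and 0.892 CPM in low-score cells, and at 9.96 CPM in S-phase cells and 1.48 CPM in low-score cells. Cdk2, their kinase, was at 111 CPM in S-phase cells and 57.1 CPM in low-score cells. Of CDK inhibitor genes, Cdkn1c (p57), an inhibitor linked to HSC quiescence, was at 4.1 CPM (3.5 to 4.78) in S-phase cells and 12.7 CPM (12.1 to 13.4) in low-score cells and was detected in 12.5% of S-phase and 11.4% of low-score cells. The share of cells with a count was thus similar while the summed level was lower (-1.43, lower in 20 of 28 libraries). Cdkn1a (p21), the p53 target, was at 35.9 CPM in S-phase cells and 26.8 CPM in low-score cells, but higher in only 11 of 28 libraries.

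Growth genes were higher by smaller steps. Each of the 29 passing genes of the ribosome biogenesis and MYC target list had a higher level in S-phase cells, with a median of 0.45. Of these, 4 were called (13.8%, against 3.41% of all genes). Srm, which makes spermidine, was at 192 CPM (187 to 196) in S-phase cells and 72.5 CPM (71.1 to 74.0) in low-score cells and ranged over libraries between 31.3 and 485 CPM (median 199.5) in S-phase cells and between 0 and 173 CPM (median 65.6) in low-score cells, and the libraries overlapped. The nucleolar genes Nop58 and Nop56 were at 467 CPM in S-phase cells and 223 CPM in low-score cells, and at 349 CPM in S-phase cells and 178 CPM in low-score cells, the second higher in 28 of 28 libraries. Myc itself was at 408 CPM in S-phase cells and 330.3 CPM in low-score cells and higher in 14 of 28 libraries, which gives no direction on summed counts. As a difference of mean log2(CPM + 1) per cell Myc was at 1.39, where the median of all genes was 0.48. On thinned counts it was at 1.37 beside 0.34. Of 42 oxidative phosphorylation genes 40 were higher and none was called (median 0.30), Cycs leading at 192 CPM in S-phase cells and 98.8 CPM in low-score cells. Glycolysis genes had a median of 0.27, with 11 of 15 higher. Of cholesterol and fatty acid synthesis genes 7 of 14 were higher (median 0.01).

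HSC identity genes other than the gate genes were at lower levels, by a small margin. Of 24 genes 20 were lower and 3 were called lower (12.5%, against 3.05% of all genes), with a median of -0.38 beside -0.07 over all genes, and the list median was below 0 in 24 of 28 libraries. Mllt3, a regulator of HSC self-renewal, was at 87.8 CPM (84.9 to 90.8) in S-phase cells and 289 CPM (286 to 292) in low-score cells. It ranged over libraries between 4.29 and 237 CPM (median 83.2) in S-phase cells and between 21.1 and 566 CPM (median 250.4) in low-score cells and was lower in 26 of 28 libraries. Ly6a, which encodes Sca-1, was at 478 CPM in S-phase cells and 903 CPM in low-score cells (log2 ratio -0.92, lower in 26 of 28). Hoxb5 was at 12.5 CPM in S-phase cells and 30.1 CPM in low-score cells and Slamf1, which encodes CD150, at 30.1 CPM in S-phase cells and 43.6 CPM in low-score cells, lower in 18 of 28 and 17 of 28 libraries. The gate genes, which every cell or most cells had to express, were lower too, but this is a description because the rule used them. A required count weighs more in a shallow cell, and low-score cells were shallower. The part of this in the levels of the gate genes was not tested. Procr was at 164 CPM (159.6 to 168) in S-phase cells and 334 CPM (331 to 337) in low-score cells and ranged over libraries between 36.0 and 378 CPM (median 156) in S-phase cells and between 116 and 613 CPM (median 321) in low-score cells, lower in 26 of 28 libraries. Hlf was at 123 CPM in S-phase cells and 232 CPM in low-score cells (24 of 28 lower) and Mecom at 108 CPM in S-phase cells and 170.3 CPM in low-score cells (21 of 28 lower). The direction of the HSC identity list depends on the scale. As a difference of mean log2(CPM + 1) per cell, the HSC identity median was 0.0158, where the median over all genes was 0.48, and on thinned counts it was 0.0193 beside 0.34. Relative to all genes the list lay lower on each scale.

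Of 9 passing markers of multipotent progenitors 6 were higher and 3 lower in S-phase cells (median 0.32). The list median was higher in 8 and lower in 18 of 28 libraries, so on summed counts the list gave no common direction. As a difference of mean log2(CPM + 1) per cell, its median was 0.93, where the median over all genes was 0.48. On thinned counts the per-cell median was 0.75 beside 0.34, with 9 genes higher and 0 lower. The direction of this list thus depends on the scale. Cd34 was detected in 94.9% of S-phase cells (90.5 to 97.6) and 77.9% of low-score cells (75.2 to 80.4), and after thinning in 90.5% and 73.1%. Cd48 was detected in 25.6% of S-phase cells (19.3 to 32.7) and 11.0% of low-score cells (9.15 to 13.1), and after thinning in 22.2% and 6.38%. Flt3, a lymphoid-primed progenitor receptor, was detected in 55.7% of S-phase cells and 32.8% of low-score cells, but in 39.9% and 28.1% after thinning, and its summed level was higher in only 11 of 28 libraries. Slamf1 was detected in 32.4% of S-phase cells and 30.6% of low-score cells, with overlapping intervals. Vwf, of platelet-biased HSCs, was detected in 15.9% of S-phase cells and 19.5% of low-score cells. In G2/M cells, described below, Cd34, Cd48 and Flt3 were detected in 94.9%, 35.8% and 58.0%.

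Genes tied to quiescence and to old HSCs were lower than in low-score cells. Of 15 quiescence genes 14 were lower and 5 were called (33.3%, against 3.05% of all genes), with a median of -0.75. The list median was below 0 in 25 of 28 libraries. Txnip, which limits glucose uptake and binds thioredoxin, was at 443 CPM (437 to 450.1) in S-phase cells and 1066 CPM (1061 to 1072) in low-score cells. It ranged over libraries between 149.9 and 1235 CPM (median 419) in S-phase cells and between 476 and 1771 CPM (median 937) in low-score cells, lower in 25 of 28 libraries. Pdzk1ip1 was at 274 CPM in S-phase cells and 565 CPM in low-score cells (log2 ratio -1.04). Btg2, an antiproliferative gene, was at 53.7 CPM in S-phase cells and 127 CPM in low-score cells (-1.23). With the rule applied anew to thinned cells, the Btg2 ratio was -0.63. Of 16 genes reported to be raised in old HSCs, 16 were lower and 4 were called (25%, against 3.05% of all genes, median -0.77). Per cell, the quiescence and aged HSC medians were -0.14 and -0.32. Of S-phase over G2/M cells, the median on summed counts was -0.14 for each list. The quiescence list median was then higher in 9 and lower in 9 of 19 libraries, and that of aged HSC genes in 8 and 9. The lower levels against low-score cells are thus not particular to S-phase cells. Sult1a1, a sulfotransferase gene, was at 106 CPM in S-phase cells and 386 CPM in low-score cells and Clec1a, a lectin gene, at 21.1 CPM in S-phase cells and 65.0 CPM in low-score cells, lower in 22 of 28 and 23 of 28 libraries.

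Immediate early genes, which cell handling is known to induce, and interferon response genes had medians below that of all genes. The immediate early list had a median of -0.65, with 12 of 13 lower and 1 called (7.69%, against 3.05% of all genes). Klf6 was at 135 CPM in S-phase cells and 304 CPM in low-score cells and Junb at 192 CPM in S-phase cells and 355 CPM in low-score cells, lower in 25 of 28 and 26 of 28 libraries. Of 20 interferon response genes 19 were lower and 4 were called (20%, against 3.05% of all genes, median -0.53). Ifit1 was at 14.3 CPM in S-phase cells and 38.7 CPM in low-score cells (log2 ratio -1.37). With the rule applied anew to thinned cells its ratio was 0.08, where depth and members changed together. Of 10 p53 target genes 9 were lower (median -0.41). Per cell, the immediate early, interferon and p53 target medians turned to 0.0362, 0.0746 and 0.22, again below the 0.48 of all genes. On thinned counts these per-cell medians were -0.068, -0.14 and 0.056, beside 0.34 over all genes.

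**Figure D3:**
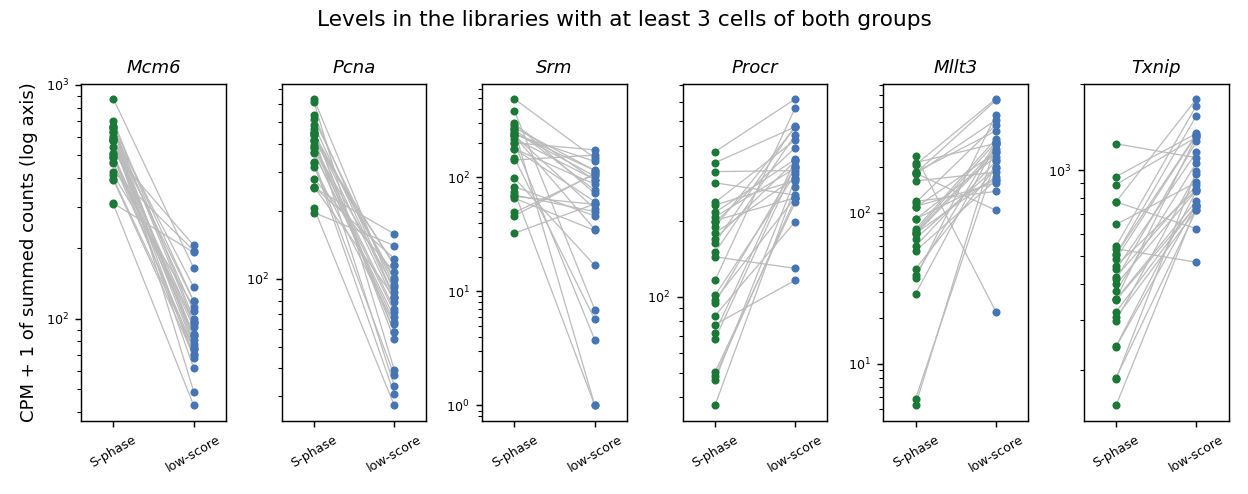
Summed CPM + 1 (log axis, separate for each gene) of 6 genes in the 28 libraries that had 3 or more cells of each group, S-phase cells left and low-score cells right, each line 1 library. Mcm6 and Pcna separate without overlap, while Srm, Procr, Mllt3 and Txnip overlap between groups.

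Outside all lists, the 10 genes with the largest ratio that were higher in at least 80% of libraries were Cenps, Fignl1, Spc24, Cenpk, Cenph, Zfp367, Syce2, 4930579G24Rik, Wdr76 and Lmnb1. Cenps, a centromere and DNA repair protein gene, was at 90.03 CPM (87.1 to 93.0) in S-phase cells and 4.92 CPM in low-score cells (log2 ratio 3.94). Fignl1, which acts in homologous recombination, was at 57.2 CPM in S-phase cells and 3.23 CPM in low-score cells (3.78, higher in 28 of 28 libraries). Centromere genes make up 3 of the 10, with Cenpk at 98.4 CPM in S-phase cells and 7.62 CPM in low-score cells and Cenph at 58.7 CPM in S-phase cells and 6.69 CPM in low-score cells. Syce2, known as a meiotic synaptonemal complex gene, was at 292 CPM in S-phase cells and 60.8 CPM in low-score cells and ranged over libraries between 136 and 519.6 CPM (median 288) in S-phase cells and between 0 and 185 CPM (median 62.9) in low-score cells, higher in 28 of 28 libraries. Lmnb1, which encodes lamin B1, was at 47.5 CPM in S-phase cells and 11.0 CPM in low-score cells.

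The 10 lowest by the same rule were F830016B08Rik, Gbp4, Slfn5, Trib3, Tcp11l2, Hist1h2bc, Hist3h2a, Cd200, Ltb and Hist1h1c. Of these, 3 are histone genes. Replication-dependent histone mRNAs lack a poly(A) tail, and the libraries were primed with oligo-dT, which reads polyadenylated forms. Hist1h2bc was at 40.5 CPM (38.6 to 42.5) in S-phase cells and 166 CPM (164 to 169) in low-score cells (log2 ratio -2.01, lower in 27 of 28 libraries), Hist3h2a at 15.8 CPM in S-phase cells and 66.2 CPM in low-score cells and Hist1h1c at 39.9 CPM in S-phase cells and 127 CPM in low-score cells. Ltb, a lymphotoxin gene, was at 104 CPM in S-phase cells and 326 CPM in low-score cells and lower in 28 of 28 libraries. Trib3, a target of the integrated stress response, was at 9.66 CPM in S-phase cells and 45.4 CPM in low-score cells (-2.12). Gbp4 and Slfn5 are interferon-inducible. Their log2 ratios of -2.20 and -2.13 were -1.56 and -1.11 with the rule applied anew to thinned cells.

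Set beside G2/M cells, S-phase cells had far lower levels of mitotic genes. Of the 8468 genes, 169 were called higher (2.00%) and 462 lower (5.46%). The groups differ in M score by the rule that made them. Of the 28 passing mitosis genes outside the rule, 15 reached 10 CPM in S-phase cells and 28 in G2/M cells, so that many passed through the cells where they are high and had to be lower here. Mki67 was at 20.0 CPM in S-phase cells and 362 CPM in G2/M cells, and Ccnb1, the mitotic cyclin gene, at 10.1 and 278 CPM. Against low-score cells the mitosis median was 1.04, but its list median was higher in 15 and lower in 3 of 28 libraries. Low-score cells were chosen below the median M score, so the rule itself lowers genes that go with that score there. Of the 28 genes, 8 reached 10 CPM in low-score cells, and the 1.04 is a description. Mki67 was detected in 26.1% of S-phase and 12.3% of low-score cells (13.9% and 8.22% after thinning). Cdk1 was at 81.9 CPM in S-phase cells, 475 CPM in G2/M cells and 13.7 CPM in low-score cells.

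Replication genes did not all order these groups alike. Ung was at 153 CPM in S-phase cells and 4.07 CPM in G2/M cells (log2 ratio 4.92), a rule gene. Mcm6, Mcm2 and Cdca7, outside the rule, were at 535, 259.6 and 356 CPM in S-phase cells and 136, 73.6 and 109 CPM in G2/M cells, and Cdca7 was higher in 19 of 19 libraries. Tk1 and Rrm2 went the other way, at 95.4 and 29.5 CPM in S-phase cells and 220.1 and 123 CPM in G2/M cells. Their levels were 504 and 313 CPM in the cells in the top 10% of both scores. Tyms was at 181 CPM in S-phase cells, 498 CPM in cells high in both, 196 CPM in G2/M cells and 25.8 CPM in low-score cells. The dNTP supply median of S-phase over G2/M cells was -0.11, against 0.51 for origin genes and 0.69 for fork genes. Ccne1 and Ccne2, under the filter, were at 9.29 and 9.96 CPM in S-phase cells and 53.4 and 52.9 CPM in cells high in both.

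**Figure D4:**
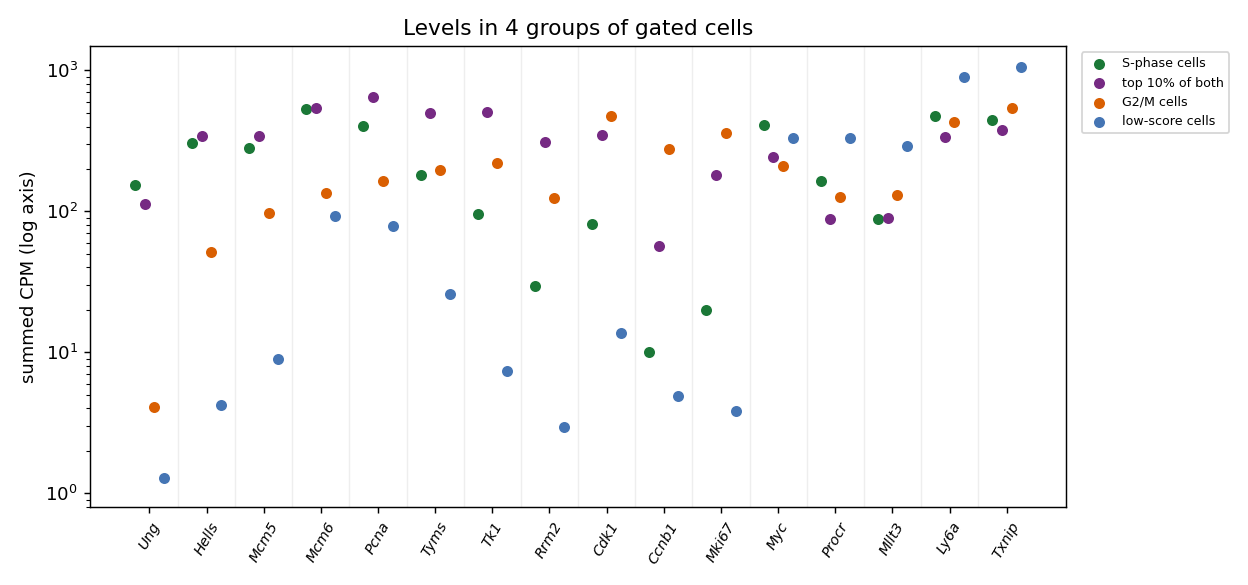
Summed CPM (log axis) of 16 genes in S-phase cells, cells in the top 10% of both scores, G2/M cells and low-score cells. Ung and Mcm6 are highest in the first pair of groups, Tk1, Rrm2 and Tyms in cells high in both scores, Ccnb1 and Mki67 in G2/M cells, and Procr, Mllt3, Ly6a and Txnip in low-score cells.

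Ribosome biogenesis and glycolysis genes were also mostly higher than in G2/M cells, and genes of oxidative phosphorylation and lipid synthesis gave no common direction. In the ribosome biogenesis and MYC target list, 28 of 29 genes were higher in S-phase cells (median 0.54). Myc was at 408 CPM in S-phase cells and 211 CPM in G2/M cells, higher in 16 of 19 libraries. Glycolysis genes had a median of 0.48, with Ldha at 1308 CPM in S-phase cells and 740.5 CPM in G2/M cells. The oxidative phosphorylation median was 0.09, and this list median was higher in 7 and lower in 12 of 19 libraries. Of cholesterol and fatty acid synthesis genes 7 of 14 were higher (median -0.0032). Erythroid and neutrophil marker sums were also lower in S-phase cells, at 1951 and 1351 CPM, against 11657 and 4721 CPM in G2/M cells. Their part in these differences was not tested beyond leaving libraries out. Without the 26 libraries at 1000 CPM or more of either list, the ribosome biogenesis median was 0.62 and the glycolysis median 0.48. The oxidative phosphorylation median was then 0.02, that of lipid synthesis 0.15 and that of HSC identity 0.03. With all libraries the HSC identity median was 0.0014, with 12 of 24 genes higher. It was -0.19 with the rule applied anew to thinned cells, so it gives no direction. Procr was at 164 CPM in S-phase cells and 127 CPM in G2/M cells. The comparisons with low-score and with G2/M cells share the S-phase cells.

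The S-phase cells were also split by their M score, as a description. The 133 with an M score at or above the gated median had a median S score of 7.04, and the 43 below it had 6.57, at medians of 193498 and 256752 counts. Tk1 was at 122 CPM in the 133 cells and 20.7 CPM in the 43 cells, Cdc6 at 56.4 and 20.5 CPM, and Ccne2 at 12.3 and 3.44 CPM. Mcm6 differed little, at 555 and 479 CPM, as did Ung at 159 and 137 CPM. Procr was at 144 CPM in the 133 cells and 218 CPM in the 43 cells. Medians of origin, fork and dNTP genes were 0.40, 0.39 and 0.48 higher in the 133 cells, and that of HSC identity genes 0.01, beside 0.07 over all genes. The split was made on the M score, which the rule used, so genes that go with that score had to differ. It therefore cannot show separate kinds of cells among the members. The part of depth was not tested. Cdc6 and Ccne2 were named after their values were seen.

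Gated cells were also ordered by S score into 10 bins of 317 or 318 cells. Pcna was nearly level over the lowest 8 bins, between 68.0 and 91.1 CPM, and then at 183 and 525 CPM in the upper pair. Mcm2 was between 23.5 and 52.8 CPM in the lowest 8 bins, and then at 112 and 255 CPM. Txnip was at 1135 CPM in the lowest bin and between 816 and 1087 CPM in the next 7, and then at 669 and 410.3 CPM. Procr was between 299 and 349.6 CPM in the lowest 7 bins, and then at 227, 163 and 127 CPM. Cd34 showed no such order, between 181 and 232 CPM. The median depth was 81334 counts in the lowest bin and 235110 in the highest, and its part in these levels was not tested. The highest bin includes cells high in both scores.

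S-phase cells were present in 56 of 66 libraries with gated cells. In the 57 libraries with at least 20 gated cells the share had a median of 4.94% and ranged up to 23.5%. Library Lib57 had 8 of 34 gated cells (23.5%, exact 95% interval 10.7 to 41.2) and library Lib65 9 of 42 (21.4%, 10.3 to 36.8). Library Lib84 had 0 of 82 gated cells, with an exact 95% upper limit of 4.40% (3 counts of 82 would be 3.66%). The interval lay above the pooled 5.55% in 3 libraries and below it in 1, and the intervals cover counting error only. The 5 libraries with the most S-phase cells held 39 of them (22.2%). Recipient, month, tissue and sort gate of each library were not known here, and their part in the spread was not tested.

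**Figure D5:**
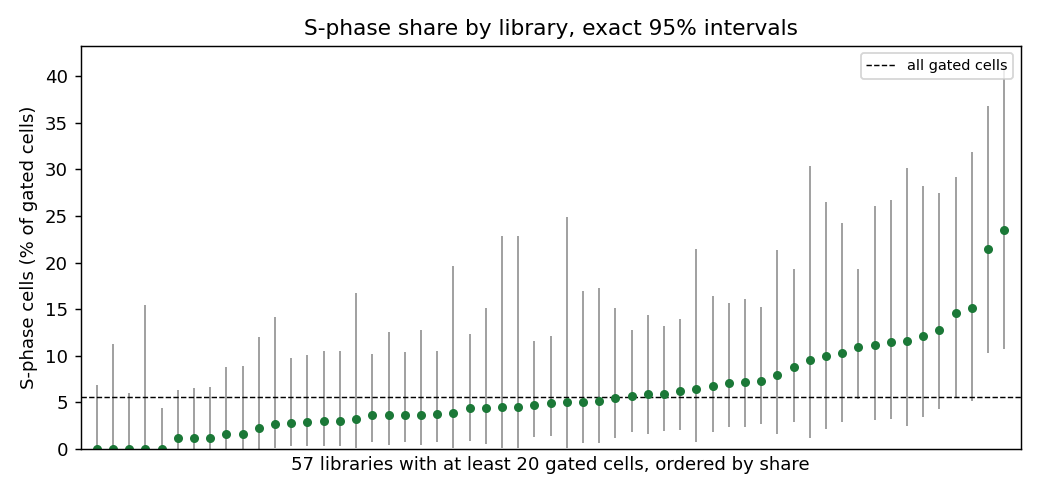
S-phase share of gated cells in the 57 libraries with at least 20 gated cells (points) with exact 95% binomial intervals (bars), ordered by share, and the share in all gated cells (dashed line, 5.55%). Most intervals include the pooled share, and the highest library lies at 23.5%.

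Markers of other blood cells varied between libraries. Over all gated cells of a library, 13 erythroid markers summed to between 99.6 and 23648 CPM (median 507), and 8 neutrophil markers to at most 21261 CPM (median 74.2). In S-phase cells the erythroid markers summed to 1951 CPM, against 873 CPM in low-score cells, but the list median was higher in 8 and lower in 15 of 28 libraries. The neutrophil markers summed to 1351 CPM in S-phase cells and 707 CPM in low-score cells, but this list median was higher in 2 and lower in 12 of 28 libraries. The neutrophil sum of a library had a median of 11.6 and a maximum of 33268 CPM in S-phase cells, against a median of 55.4 and a maximum of 2195 CPM in low-score cells. Hba-a1, a globin gene, ranged over libraries between 0 and 3989 CPM (median 24.3) in S-phase cells and between 0 and 1186 CPM (median 37.2) in low-score cells. Camp, a neutrophil granule gene, had library medians of 0 CPM in S-phase cells and 0.423 CPM in low-score cells, and its highest library stood at 5128 CPM in S-phase cells. Against G2/M cells, S-phase cells had lower sums of both lists, 1951 CPM against 11657 CPM for the erythroid and 1351 CPM against 4721 CPM for the neutrophil markers, and each of the 8 passing genes of either list was lower; the filter was taken over all gated cells, so genes that pass through G2/M cells had to be lower. Without the 26 libraries at 1000 CPM or more of either list, which held 64 S-phase and 367 low-score cells, the neutrophil sums were 30.8 CPM in S-phase cells and 76.7 CPM in low-score cells, the erythroid median was -0.97 on 6 genes, the replication median 1.86, the HSC identity median -0.33, and 439 genes were called lower. Megakaryocyte, basophil and mast, and stromal markers summed to 359, 9.99 and 9.69 CPM in S-phase cells, against 421, 12.5 and 14.1 CPM in low-score cells. Plasma cell markers summed to 35.2 CPM in S-phase cells and 182 CPM in low-score cells, but the sum of a library had a median of 1.38 and a maximum of 993 CPM in S-phase cells, against a median of 1.79 and a maximum of 14067 CPM in low-score cells, and the median cell of either group was at 0 CPM. Monocyte, dendritic, B and T lineage and granule progenitor markers summed to 1235, 799, 84.7, 24.9 and 1050.5 CPM in S-phase cells, against 1254, 1310.2, 102, 13.1 and 1201 CPM in low-score cells. The part of these markers in other differences was not tested beyond leaving libraries out.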

How the data were processed

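Libraries of single cells were 3'-enriched STRT-seq libraries (a modified Smart-seq2), per the labels' protocols. The authors deposited whole-number counts per gene and cell, not normalized. The tools were HISAT2 2.1.0, HTSeq 0.9.1 and Trimmomatic 0.36, on GRCm38, per the submitters' processing notes. The sources used here do not say whether reads or molecules were counted or whether strand was used, so antisense and near-identical genes are uncertain. The columns of 17 cells were not used. Of 95 cell numbers, 93 recur in more than 1 library, where they name different cells. No doublet caller was run on singly sorted cells.

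Counts were summed over the cells of a group and scaled to CPM. Ratios added 1 CPM, and genes at 10 CPM or more over gated cells were compared. Thinning drew 50000 counts per cell (seed 0). Genes were named as up to 6 per list by size of ratio, 12 fixed genes, and the 10 largest each way outside lists that kept their direction in 80% of libraries. The members and lists were chosen with earlier results of these data known. The steps were tested on simulated data. Python 3.11.15, numpy 2.4.6, scipy 1.17.1 and pandas 2.3.3 were used. Of 19224 genes, 19071 had a position in the GENCODE annotation of GRCm38. Alternatives changed the cell filter, the score limit, the gate, the depth, the libraries, the pseudocount, the level filter and the comparison cells.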

Additional observations from a re-analysis of the deposited data

How the results depend on the processing

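No paired analysis was possible because cells carry no replicate number or sample. Of the main values repeated under other settings, 66 stayed within the limits used, 16 moved beyond them and 3 changed sign. The limits were a set fold for gene counts, the binomial interval for the share and the standard deviation over libraries for medians. That deviation was 0.68 for the mitosis median, so its large shifts could count as within the limits. Taking the top 5% or the top 20% in place of 10% gave 457 or 137 genes called higher (289 before), 442 or 111 called lower (258 before) and shares of 3.88% or 8.89%; the mitosis median (1.04 before) was 1.75 at 5%, 0.41 at 20%, 0.56 with libraries weighted equally and 0.67 with a pseudocount of 5 CPM, and the replication median 1.42 at 20%. A level filter of 1 CPM gave 585 higher and 694 lower, and a pseudocount of 5 CPM 134 lower. Weighting libraries equally gave 1142 lower, and leaving out the 26 libraries with high erythroid or neutrophil markers, a choice made after seeing the data, 439 lower. Differences of mean log2(CPM + 1) per cell gave 1783 higher, 24 lower, a replication median of 2.94 and an HSC identity median of 0.0158 in place of -0.38, with all genes shifted to 0.48. The HSC identity median of S-phase over G2/M cells was -0.19 with the rule applied anew to thinned cells. It was -0.054 without the library with most G2/M cells. Leaving out each of 66 libraries gave 276 to 311 higher, 256 to 292 lower, replication medians of 1.90 to 2.05, HSC identity medians of -0.42 to -0.36, mitosis medians of 0.96 to 1.13 and shares of 5.32 to 5.58%. The cause of these shifts was not tested. Libraries with few S-phase cells limit how far a ratio within a library can be read.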
